A study of Mus musculus with 12 samples.

Results

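Brainstem RNA of 3 morphine males was compared with that of 3 saline males, 6 of the 12 mice in the study, and all genes were read by their raw counts. These 6 mice were chosen by the sex and agent in their labels. The animals were outbred CFW (Swiss Webster) mice at P15. Morphine males had received 15 mg/kg morphine sulfate pentahydrate subcutaneously 2 times daily from P1 to P14, saline males had received saline on the same schedule, and brainstems (medulla and pons) were taken 16 h after the last injection. Each mouse gave 1 library of poly-A RNA. The mixed-litter design placed pups of both treatments in 1 litter, and the dam of each pup was not used here. Counts were deposited for 55418 genes, of which 18166 had enough counts in the males to be tested.

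Morphine acts on the μ opioid receptor, which couples to inhibitory G-proteins and lowers cAMP and transmitter release. The brainstem holds the locus coeruleus, the source of most noradrenergic fibers, together with the serotonergic raphe nuclei and the respiratory rhythm generators, and noradrenergic firing rises when opioid exposure stops. The samples therefore stand for spontaneous withdrawal and not for acute morphine.

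Between 29753432 and 48097947 counts per male fell on genes. Levels below are CPM, the count of a gene scaled to the size of its library, here after TMM scaling. The libraries differed from each other mainly along a single axis, the first principal component, which held 79.6% of the variance of log2 levels. Saline males 1 and 2 scored 31.6 and 38.4 on it and saline male 3 scored -51.3, while morphine males 4, 5, and 6 scored -11.2, -19.6, and 12.0. All morphine libraries thus lay between the saline libraries. Saline male 3 had the highest level of the 6 mice for 6333 genes and the lowest for 6324. The library labelled morphine male 6 did not match its label fully. In it *Xist*, the RNA that silences one X chromosome in females, stood at 380 CPM, against 0.398 to 2.71 CPM in the other males and 547 to 970 CPM in the 6 females. Its Y-linked genes *Ddx3y*, *Eif2s3y*, *Kdm5d*, and *Uty* stood at 12.8, 19.0, 12.4, and 9.03 CPM, below the other males but above every female. The counts of DE genes and the medians of some classes and lists are therefore given with and without saline male 3 and this library. Values of single genes are from all 6 mice unless stated, and these can shift too. Without saline male 3 the log2 fold change of the receptor gene *Gria2* went from 0.12 to 0.48. That of the channel gene *Cacna1a* went from 0.15 to -0.02.

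**Figure D1:**
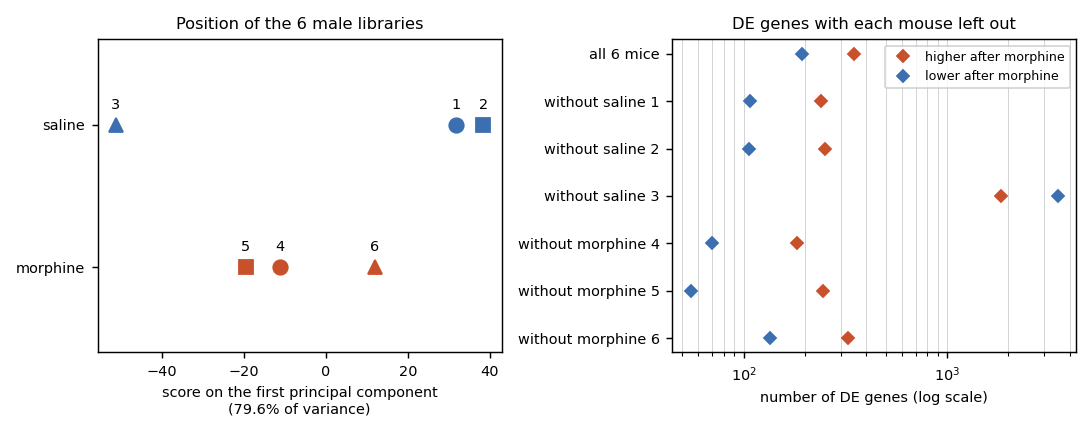
Left, score of each male library on the first principal component of log2 levels (numbers are the labelled mice), with the 3 morphine males between the saline extremes. Right, number of DE genes (log scale) in each direction with all 6 mice and with each mouse left out: the count is 5341 in all without saline male 3 and 253 to 462 without any other mouse.

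Differentially expressed (DE) genes were those at an unadjusted p under 0.05 (quasi-likelihood test of edgeR) whose log2 fold change exceeded 0.26 in size. With these thresholds 543 genes were DE, which is 2.99% of the genes tested. A p threshold of 0.05 passes 5% of genes when none differs, so this count as a whole was no larger than the threshold itself can give. Of these, 349 (1.92%) were higher and 194 (1.07%) were lower in morphine males. No gene had a Benjamini-Hochberg adjusted p under 0.05 in that test or in the Wald test of DESeq2. The exactTest function of edgeR gave 1 such gene, *Gm45743*, an unclassified transcript with an adjusted p of 0.0245 in exactTest and a log2 fold change of 1.53. For 1651 genes (9.09%) every mouse of one group lay above every mouse of the other, and 481 of these were DE. DE genes that were higher had a median level of 1.19 CPM and those that were lower a median of 9.13 CPM, against 14.1 CPM over all genes tested. The direction depended on scaling. Higher genes made up 64.3% of the calls after TMM scaling and 91.3% (737 higher, 70 lower) when libraries were scaled by total counts, a change that shifted the median of all genes tested by 0.13 on the log2 scale, from -0.06 to 0.06.

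Which mice were included changed the calls more. Leaving out saline male 3 gave 5341 DE genes (1838 higher, 3503 lower), 2141 of which kept a quasi-likelihood p under 0.05 once adjusted, and leaving out the library labelled morphine male 6 gave 462 (327 higher, 135 lower). Counts were lower without any other mouse, with 347 and 357 DE genes without saline males 1 and 2, and 253 and 300 without morphine males 4 and 5. Without saline male 3, 295 of the 349 higher genes and 153 of the 194 lower genes were still called in the same direction. Without the library labelled morphine male 6, 195 and 84 were. The calls held in all 6 fits that left out a mouse for 74 higher and 20 lower genes.

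The 10 named genes that were higher were mostly transcripts that code for no protein (7 of 10). Of all 349 higher DE genes, 154 were protein-coding. The rule for naming genes took only genes with small p and no overlap between groups, and left out predicted-gene names. The separation of the groups in these genes was therefore fixed in advance. *Fat2*, a giant protocadherin of cerebellar granule cells (chr11:55250609-55336564, GRCm38), had 13.8, 12.8, and 11.7 CPM in saline males 1 to 3 and 24.6, 23.4, and 19.3 CPM in morphine males 4 to 6. Its log2 fold change was 0.81 ± 0.17 (SE), with an unadjusted p of 0.00176 in the quasi-likelihood test. *Meg3*, a maternally expressed long noncoding RNA of the imprinted *Dlk1-Dio3* locus (chr12:109541001-109571726), had 2362, 2676, and 3031 CPM in saline and 4611, 4485, and 3969 CPM in morphine males. The gap between the groups exceeded the spread within either one, at a log2 fold change of 0.70 ± 0.15 and an unadjusted p of 0.00223.

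*Mirg*, a host transcript of microRNAs at the same locus (chr12:109729764-109749460), had 17.4, 17.9, and 14.6 CPM in saline and 24.5, 25.9, and 28.0 CPM in morphine males, a log2 fold change of 0.65 ± 0.15. For *Mir124a-1hg*, the host transcript of the neuronal microRNA miR-124 (chr14:64587331-64593961), saline males had 61.7, 75.3, and 78.8 CPM and morphine males 103, 114, and 105 CPM. The log2 fold change was 0.57 ± 0.14. *C78859*, a long intergenic RNA (chr8:94322158-94328100), was at 13.2, 14.7, and 15.7 CPM against 22.7, 21.9, and 21.8 CPM, with a log2 fold change of 0.61 ± 0.15. In this gene the morphine males differed from each other by less than the saline males did.

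*Col24a1*, a fibrillar collagen (chr3:145292472-145552011), had 4.99, 5.45, and 5.22 CPM in saline and 9.60, 7.78, and 8.44 CPM in morphine males (log2 fold change 0.72 ± 0.17). *Col6a6*, a chain of collagen VI in the matrix around cells (chr9:105687809-105828160), had 1.85, 2.12, and 1.66 CPM and 3.38, 3.74, and 3.06 CPM (0.85 ± 0.21). The other named genes were low in level. *Fendrr*, a noncoding RNA next to the gene of the transcription factor *Foxf1* (chr8:121054882-121083110), stood at 0.538, 0.454, and 0.626 CPM against 1.18, 1.33, and 0.981 CPM (1.12 ± 0.27). *Ict1os* and *Mypopos*, transcripts antisense to protein-coding genes, had log2 fold changes of 0.98 ± 0.23 and 0.77 ± 0.19. The strand setting of the counting is not given in the sources used here, so reads of these 2 genes cannot be told apart from those of their partners.

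**Figure D2:**
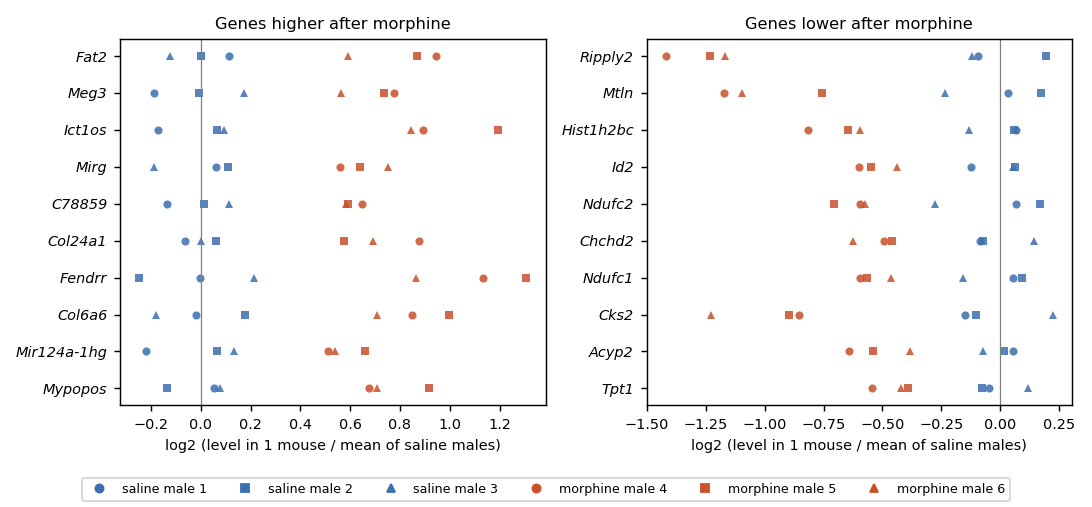
Level of each of the 20 named genes in each male mouse, as log2 of the ratio to the mean of the saline males, with saline mice in blue and morphine mice in red. In all 20 genes the 3 morphine mice lie on one side of the 3 saline mice, as the rule for naming genes required.

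The 10 named genes that were lower all code for proteins, as did 165 of all 194 lower DE genes. Of the 18166 genes tested, 15034 were protein-coding. Several proteins of the 10 named genes work in mitochondria. *Ripply2*, a transcriptional repressor of somite segmentation (chr9:87015537-87019917), had 2.00, 2.45, and 1.97 CPM in saline and 0.800, 0.911, and 0.951 CPM in morphine males. All morphine levels were below 1 CPM, and the log2 fold change was -1.27 ± 0.22 with an unadjusted p of 0.00076. *Mtln*, a micropeptide of the mitochondrial inner membrane that acts in fatty acid oxidation (chr2:127791388-127792488), had 12.4, 13.7, and 10.3 CPM against 5.39, 7.19, and 5.68 CPM, a log2 fold change of -0.998 ± 0.20.

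*Ndufc2* and *Ndufc1*, subunits of respiratory complex I, were lower together. The levels of *Ndufc2* (chr7:97400003-97407802) were 59.1 to 80.5 CPM in saline and 47.3, 43.9, and 48.0 CPM in morphine males (log2 fold change -0.62 ± 0.15), and those of *Ndufc1* (chr3:51404677-51408988) were 53.0, 54.5, and 45.9 CPM and 33.8, 34.5, and 37.1 CPM (-0.54 ± 0.14). In both genes saline male 3 was the saline mouse nearest to the morphine males. *Chchd2*, a mitochondrial intermembrane protein tied to cytochrome oxidase (chr5:129881156-129887470), had 73.1, 73.8, and 85.7 CPM against 55.1, 56.4, and 50.3 CPM (-0.52 ± 0.13), and here saline male 3 was the farthest from them.

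*Id2*, an inhibitor of basic helix-loop-helix transcription factors (chr12:25093799-25097140), had 92.3, 105, and 104 CPM in saline and 66.4, 68.9, and 74.4 CPM in morphine males (log2 fold change -0.53 ± 0.12). *Tpt1*, the translationally controlled tumor protein (chr14:75845093-75848525), was the most abundant by count of the 10 lower genes, with 425, 416, and 477 CPM against 301, 335, and 328 CPM (-0.45 ± 0.12). For *Hist1h2bc*, a histone H2B gene (chr13:23684199-23692908), the levels were 21.5, 21.4, and 18.7 CPM and 11.6, 13.1, and 13.6 CPM (-0.68 ± 0.15). These genes had no overlap between groups, as the rule for naming them required. *Cks2*, a partner of cyclin-dependent kinases, and *Acyp2*, an acylphosphatase, had log2 fold changes of -0.98 ± 0.25 and -0.52 ± 0.14. Of the 20 named genes, 19 were called in all 6 fits that left out a mouse. The exception, *Acyp2*, was called in 5. These genes were chosen from the same mice for small p and no overlap, so this count is no independent check of them. Of all DE genes, 74 of 349 higher and 20 of 194 lower were called in all 6.

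A larger share of noncoding transcripts than of protein-coding genes was DE. Of 15034 protein-coding genes tested, 154 were higher and 165 were lower, 2.12% in all, and their median log2 fold change was -0.08. Among 706 transcripts annotated as antisense, 59 were higher and 6 lower (9.21%), with a median of 0.16. Among 617 transcripts of the class TEC, predicted transcripts that still await experimental proof, 53 were higher and 4 lower (9.24%), with a median of 0.22, and among 736 long intergenic RNAs 39 were higher and 4 lower (5.84%), with a median of 0.07. Medians of these 3 classes stayed above 0 without saline male 3 (0.27, 0.47, and 0.23), without the library labelled morphine male 6 (0.19, 0.32, and 0.11), and under scaling by total counts (0.29, 0.35, and 0.19). Poly-A selection was stated for these libraries, and whether such transcripts are spliced was not measured. The share of DE genes also went with level. By mean level, genes were put into 4 classes of equal size. In the lowest level class 225 genes were higher and 59 lower (6.25%), with a median of 0.07. In the other level classes 1.34% to 2.75% of genes were DE, with medians of -0.09 to -0.08. Noncoding and protein-coding genes of similar level were not compared, so the part of level in the shares by annotated class was not tested.

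Fold change also went with the length of the transcript. Genes were split into 4 classes of equal size by summed exon length. In the shortest class (57 to 2388 bases) 150 genes were higher and 118 lower, and in the longest class (6283 bases and more) 66 were higher and 9 lower. The median log2 fold change was -0.13 in the shortest class and 0.00 in the longest. It was -0.08 and 0.14 without saline male 3, and -0.16 and 0.03 without the library labelled morphine male 6. Library position moved with length too. The median deviation of the longest class from the mean of the 6 mice was -0.06, -0.10, and 0.11 (log2) in saline males 1 to 3 and 0.03, 0.05, and -0.04 in morphine males 4 to 6. The part of transcript length in any single gene's difference was not tested.

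**Figure D3:**
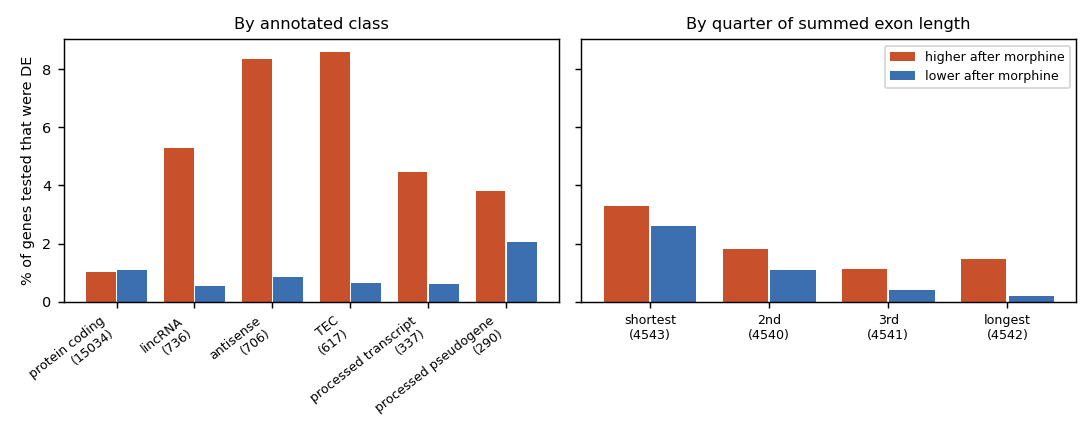
Share of the genes tested that were DE, higher (red) or lower (blue) after morphine, by annotated class (left) and by class of summed exon length (right), with the number of genes tested in parentheses. Antisense and TEC transcripts have the tallest bars for higher genes, at 8.36% and 8.59%, and the lower genes fall from 2.60% in the shortest class to 0.198% in the longest.

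The *Dlk1-Dio3* locus encodes maternally expressed noncoding RNAs and paternally expressed proteins. Of its 5 members tested, *Meg3*, *Mirg*, and *Rtl1* were DE and higher, and none was lower at these thresholds. *Rtl1*, a retrotransposon-derived protein gene expressed from the paternal allele, had 10.6, 14.7, and 10.4 CPM in saline and 16.5, 17.4, and 15.3 CPM in morphine males (log2 fold change 0.46 ± 0.19). *Rian*, which lies between *Meg3* and *Mirg* and hosts small nucleolar RNAs, had 585, 588, and 943 CPM against 869, 805, and 738 CPM. Saline male 3 had the highest *Rian* level of all 6, so the groups overlapped. *Dlk1*, the paternally expressed Notch ligand homolog, had a log2 fold change of -0.09 ± 0.17. Outside this locus, *Miat* (0.58 ± 0.17), *Neat1* (0.48 ± 0.15), and *Snhg11* (0.51 ± 0.21) were DE and higher. *Miat* and *Neat1* are long noncoding RNAs kept in the nucleus, and *Neat1* is the scaffold of paraspeckles. In *Miat* the saline males had 173, 206, and 136 CPM and the morphine males 261, 246, and 263 CPM, with no overlap. The list of 18 nuclear long noncoding RNAs had 5 higher and 0 lower DE genes. *Meg3* and *Mirg* are among these 5 and were already counted in the locus. Of all genes tested 1.92% were higher and DE, and of long intergenic RNAs 5.30%. The list's median log2 fold change was 0.14, beside -0.06 for all genes tested.

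Cytosolic ribosomal protein genes had lower estimates in morphine males for 78 of 80 members. Of the 80, 8 were DE, all lower, where 1.07% of all genes tested were lower and DE, and the list's median was -0.37. Many of these genes, and also *Tpt1*, *Chchd2*, and the histone and globin genes, have near-identical copies or pseudogenes, so their counts depend on how shared reads were handled. *Rpl27a*, a large-subunit protein, had 79.9, 73.9, and 51.7 CPM in saline and 44.3, 45.4, and 44.4 CPM in morphine males (log2 fold change -0.62 ± 0.18). *Rps13*, a small-subunit protein, had 85.1, 97.1, and 61.8 CPM against 54.0, 51.8, and 56.2 CPM (-0.59 ± 0.18). In both genes saline male 3 stood between saline males 1 and 2 and the morphine males. Summed over the list, levels were 10200, 9690, and 5886 CPM in saline males 1 to 3 and 6331, 6099, and 7211 CPM in morphine males 4 to 6, so the mouse with the lowest sum was saline male 3. *Rps20* (-0.50 ± 0.17) and *Rpl3l* (-0.96 ± 0.33), a homolog of *Rpl3* expressed mainly in muscle, were also DE. The median of the list was -0.58 without saline male 3, -0.49 without the library labelled morphine male 6, and -0.25 under scaling by total counts.

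Many ribosomal protein mRNAs begin with a run of pyrimidines that couples their translation to growth signals. The motif TCTTT was searched within 15 bases of the annotated start in RefSeq promoters (GRCm38.p6), on the gene's strand and on the other strand. Of 59 ribosomal protein genes with an entry, 12 (20.3%) held it on the gene's strand and 0 on the other strand, while 4.16% and 4.00% of all 27025 genes with an entry did. The windows around the annotated start are shown for the 4 ribosomal protein genes with the highest CPM that have an entry. None of the 4 holds the motif. Whether their mRNAs start at these bases was not tested. The search can also miss a run of pyrimidines, as it does upstream of the marked base in *Rpl4*. The capital letter marks the first annotated base, and 15 bases precede it.
Rpl4, chr9:64173372-64173401, plus strand: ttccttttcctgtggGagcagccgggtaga
Rpsa, chr9:120127751-120127780, plus strand: gtgggttatttaaggAcgtcatttccggcc
Rps4x, chrX:102189377-102189406, minus strand: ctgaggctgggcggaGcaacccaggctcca
Rpl9, chr5:65391417-65391446, minus strand: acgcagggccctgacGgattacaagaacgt
These genes had log2 fold changes of -0.11 ± 0.13, -0.59 ± 0.33, -0.18 ± 0.14, and -0.14 ± 0.12, and none was DE.

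Nuclear genes of oxidative phosphorylation showed the same direction, with lower estimates for 81 of 84. Of these, 7 were DE, all lower, where 1.07% of all genes tested were lower and DE. The groups did not overlap for 18 lower genes and 0 higher genes, beside 4.28% and 4.81% of all genes tested. *Ndufb6*, a complex I subunit, had 51.9, 54.5, and 31.4 CPM in saline and 29.1, 24.3, and 28.2 CPM in morphine males (log2 fold change -0.75 ± 0.23). *Sdhd*, the membrane anchor of complex II, had 132, 136, and 121 CPM against 103, 96.0, and 105 CPM (-0.36 ± 0.12). Saline male 3 was again the saline mouse closest to the morphine males in both. The list's median was -0.31, and it was -0.47 without saline male 3, -0.39 without the library labelled morphine male 6, and -0.18 under scaling by total counts. Transcripts of the mitochondrial genome, which are made inside the organelle, had estimates below 0 for 9 of 9 and none was DE. Their median went from -0.28 to -0.03 without saline male 3, the mouse with the largest share of mitochondrial counts (7.90%, against 5.03% to 6.52% in the others). Proteasome subunits had 0 DE genes of 39 and a median of -0.17, and *Psmd2* and *Psmd1*, the members with the highest CPM, had log2 fold changes of -0.04 ± 0.13 and -0.01 ± 0.15.

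Markers of the choroid plexus, the epithelium that secretes cerebrospinal fluid and is not part of the medulla or pons, had estimates above 0 for 12 of 12 genes, with 7 DE (against 1.92% of all genes tested that were higher and DE) and a median log2 fold change of 0.74. *Ttr*, the transthyretin that carries thyroid hormone, had 499, 407, and 243 CPM in saline and 729, 768, and 389 CPM in morphine males. *Folr1*, a folate receptor, had 4.27, 3.53, and 2.35 CPM against 8.65, 7.49, and 5.05 CPM (1.06 ± 0.30). In most of the 12 genes morphine males 4 and 5 were high and the library labelled morphine male 6 was within the saline range, and *Folr1* was the member whose groups did not overlap. *Cldn2*, a tight junction protein, had 2.42, 2.34, and 3.50 CPM against 6.75, 8.24, and 3.12 CPM (1.13 ± 0.38), *Clic6*, a chloride channel protein, had a log2 fold change of 0.88 ± 0.33, and *Slc4a5*, a bicarbonate transporter, had 0.75 ± 0.27. The list's summed level was 1675 to 2033 CPM in saline and 1746 to 2749 CPM in morphine males. In these bulk samples, a change in the number of cells of a type and a change in the RNA per cell cannot be told apart.

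Cerebellar granule cell markers had 5 DE genes of 13, all higher, beside 1.92% of all genes tested that were higher and DE, with a median log2 fold change of 0.34. The list includes *Fat2*, which was also named above for its small p. *Eomes*, which marks unipolar brush cells next to the granule cells, had 0.807, 0.887, and 0.907 CPM in saline and 1.84, 5.24, and 1.43 CPM in morphine males (1.70 ± 0.51). *Gabra6*, the granule cell subunit of the GABA-A receptor, had 4.87, 2.99, and 5.00 CPM against 7.26, 18.9, and 6.48 CPM (1.35 ± 0.46). Morphine male 5 had the highest level of *Eomes*, *Gabra6*, and *Cbln3*, while *Fat2* was highest in morphine male 4. *Reln*, the secreted reelin of granule cells and other neurons, had a log2 fold change of 0.35 ± 0.12, but *Cbln1* (0.01 ± 0.17) and *Slc17a7* (-0.12 ± 0.33), other genes of the list, were not DE. The summed level was 394 to 426 CPM in saline and 424 to 491 CPM in morphine males. Purkinje cell markers had 0 DE genes of 11 and a median of 0.19. *Gad1*, which makes GABA, and *Calb1*, a calcium buffer, the members with the highest CPM, had 0.11 ± 0.14 and -0.09 ± 0.26. The part of neighboring tissue in the difference of *Fat2* or of any other gene was not tested.

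**Figure D4:**
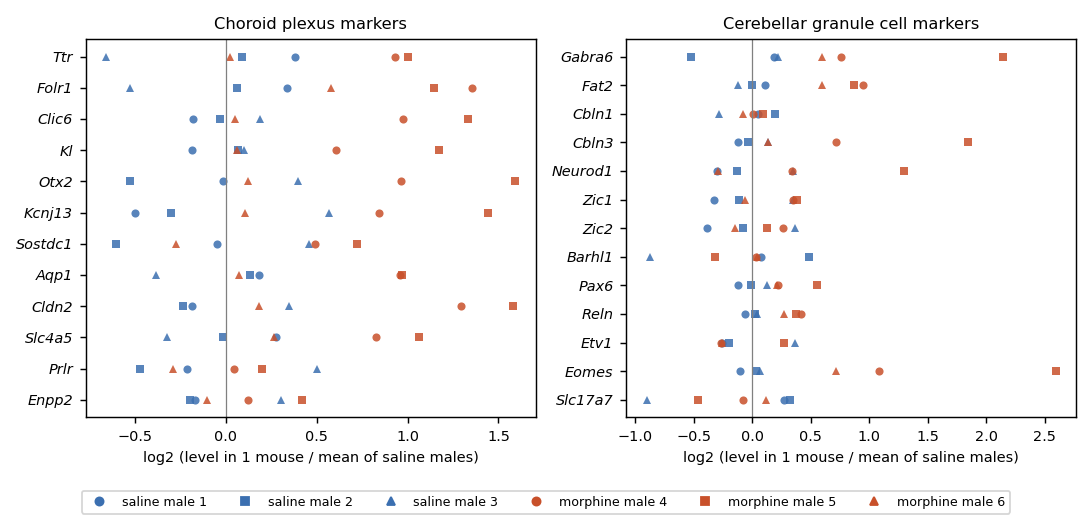
Level of choroid plexus markers (left) and cerebellar granule cell markers (right) in each male mouse, as log2 of the ratio to the mean of the saline males, with saline mice in blue and morphine mice in red. Morphine males 4 and 5 have most of the high values, and morphine male 6 is among the saline males for most choroid plexus markers.

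Ependymal markers, which are genes of motile cilia, had estimates above 0 for 12 of 14 and a median of 0.41. For 5 of the 14 the groups did not overlap and morphine was higher, beside 4.81% of all genes tested. Summed levels were 43.9 to 50.8 CPM in saline and 51.5 to 61.4 CPM in morphine males, without overlap. Of the 14, 1 was DE and higher, beside 1.92% of all genes tested. That gene, *Spag17*, a protein of the ciliary axoneme, had 0.179, 0.281, and 0.125 CPM in saline and 0.563, 0.456, and 0.446 CPM in morphine males (log2 fold change 1.27 ± 0.38), a low level in every mouse. Meningeal fibroblast markers had 0 DE genes of 14 and a median of -0.08, with the collagens *Col1a2* at -0.22 ± 0.22 and *Col3a1* at -0.23 ± 0.32. Endothelial cells and pericytes had 0 of 13 and a median of -0.07, with the pericyte gene *Rgs5* at -0.18 ± 0.20 and the VEGF receptor *Flt1* at 0.05 ± 0.11.

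Glial lists leaned lower. Over all 18166 genes tested, 11332 had estimates below 0, the median was -0.06, and 1.07% were lower and DE. Myelin and mature oligodendrocyte genes had estimates below 0 for 15 of 16, a median of -0.28, and 2 DE genes. *Cldn11*, the claudin of myelin tight junctions, had 1244, 1462, and 1433 CPM in saline and 884, 1027, and 1037 CPM in morphine males (log2 fold change -0.49 ± 0.13), without overlap, and was called in all 6 fits that left out a mouse. *Mobp*, the myelin-associated oligodendrocyte basic protein, had 5244, 5318, and 4090 CPM against 3046, 3821, and 4094 CPM (-0.42 ± 0.18), and was called in 2 of the 6. Its highest morphine level was just above its lowest saline level. Oligodendrocyte precursor genes had 1 DE gene of 12, the lineage factor *Olig2* (-0.45 ± 0.17, called in 1 of the 6 fits), and a median of -0.22. Cholesterol synthesis genes, which supply lipid to growing myelin, had 0 DE genes of 22 and a median of -0.16, with the pathway enzymes *Hmgcs1* at -0.21 ± 0.14 and *Cyp51* at -0.16 ± 0.15. Under scaling by total counts the median of myelin genes was -0.15, that of precursor genes -0.10, and that of astrocyte markers -0.15.

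Astrocyte markers summed to 8653, 8807, and 8921 CPM in saline and 7301, 7886, and 7640 CPM in morphine males, so the sums of the groups did not overlap, as was the case for 12 of the 39 lists (5 higher, 7 lower). Of the 12 markers 1 was DE, the gap junction gene *Gjb6*, with 101, 99.0, and 102 CPM against 64.9, 84.1, and 85.8 CPM (log2 fold change -0.36 ± 0.15, called in 1 of the 6 fits without 1 mouse), and the list's median was -0.27. Microglial markers summed to 304 to 381 CPM in saline and 282 to 295 CPM in morphine males, and they had 0 DE genes of 13 and a median of -0.28, with the growth factor receptor *Csf1r* at 0.01 ± 0.24. Neuronal markers summed to 10012 to 11580 CPM in saline and 9356 to 9730 CPM in morphine males, also apart, and they had 1 DE gene of 12 and a median of -0.18. That gene was *Gap43*, a protein of growing axons, called in 1 of the 6 fits without 1 mouse. It had 168, 158, and 160 CPM in saline and 141, 128, and 132 CPM in morphine males (-0.28 ± 0.11). The TMM factors were 0.954 to 0.962 in saline and 1.03 to 1.06 in morphine males. Under scaling by total counts the median was -0.05 for neuronal and -0.16 for microglial markers. Whether the astrocyte, microglial, and neuronal sums stay apart under that scaling was not tested.

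Genes of opioid signaling did not pass the thresholds in males, with 0 DE genes of 8 and a median of 0.00. *Oprm1*, the μ receptor that morphine binds, had 3.83, 2.66, and 2.31 CPM in saline and 4.77, 3.35, and 2.68 CPM in morphine males (log2 fold change 0.30 ± 0.30), and the groups overlapped. *Oprl1*, the nociceptin receptor, and *Penk*, the precursor of enkephalins, had 0.03 ± 0.12 and -0.03 ± 0.17. Adenylyl cyclase, PKA, and CREB genes, which act downstream of opioid receptors, had 0 DE genes of 18 and a median of -0.02, with the PKA subunits *Prkar1a* at -0.13 ± 0.13 and *Prkacb* at -0.08 ± 0.15. Their summed levels were 3109 to 3187 CPM in saline and 2890 to 3013 CPM in morphine males, without overlap, and the median turned to 0.11 under scaling by total counts.

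Noradrenergic markers had 0 DE genes of 11 and a median of -0.09. *Slc6a2*, the norepinephrine transporter, had 4.90, 3.25, and 4.97 CPM in saline and 4.86, 6.38, and 7.61 CPM in morphine males. Its estimate was positive (0.52 ± 0.26, unadjusted p of 0.0848), but morphine male 4 lay within the saline range. *Maoa*, which degrades monoamines, and *Cyb561*, an electron carrier of secretory vesicles, the list's members with the highest CPM, had -0.09 ± 0.21 and -0.10 ± 0.22. Serotonergic markers had 0 of 10 and a median of -0.13, with *Tph2*, the rate-limiting enzyme of serotonin synthesis in neurons, at -0.10 ± 0.29 and the serotonin receptor gene *Htr1b* at -0.05 ± 0.22. Cholinergic and motor neuron markers had 0 of 8 and a median of -0.27, with *Ache*, which degrades acetylcholine, at -0.33 ± 0.39 and the choline transporter gene *Slc5a7* at 0.00 ± 0.27.

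Voltage-gated calcium channel genes were higher in estimate for 6 of 9 α1 subunits, and none was DE in the male fit. The study names *Meg3*, *Slc6a2*, *Cacna1c*, *Cacna1d*, and *Cacna1e*, and also *Per3*, *Adcyap1r1*, *Ryr2*, *Ryr3*, *Grin2b*, *Kcnj6*, and *Kcnj13*, from these same mice, so their values here are no independent evidence. *Cacna1c*, the L-type channel Cav1.2, had 46.5, 49.6, and 51.8 CPM in saline and 69.0, 56.4, and 55.6 CPM in morphine males. These levels did not overlap, but the log2 fold change of 0.29 ± 0.14 had an unadjusted p of 0.0788. *Cacna1d*, the L-type channel Cav1.3, had 29.3, 25.7, and 24.4 CPM against 33.4, 30.9, and 30.2 CPM (0.25 ± 0.14), and *Cacna1e*, the R-type channel, had 106, 92.8, and 142 CPM against 167, 171, and 123 CPM (0.43 ± 0.21). In *Cacna1e* the groups overlapped, and *Cacna1a*, the P/Q-type channel, had 0.15 ± 0.22. The median of the subunits was 0.20, and it was -0.02 without saline male 3. Among calcium release channels, 1 of 6 was higher and DE, beside 1.92% of all genes tested. This gene, *Ryr3*, a ryanodine receptor, had 32.9, 27.5, and 34.7 CPM in saline and 41.5, 41.6, and 38.4 CPM in morphine males (0.35 ± 0.15), and the list's median was 0.24. The cardiac ryanodine receptor *Ryr2* was at 0.25 ± 0.15 and was not DE.

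*Kcnj6*, a potassium channel opened by G-proteins downstream of the μ receptor, was DE, with 5.68, 5.06, and 5.44 CPM in saline and 7.70, 7.26, and 7.70 CPM in morphine males (log2 fold change 0.49 ± 0.16), and the groups were apart. *Grin2b*, an NMDA receptor subunit, had 69.6, 60.1, and 85.5 CPM against 111, 97.0, and 74.9 CPM (0.40 ± 0.20), and its groups overlapped. *Adcyap1r1*, the receptor of the peptide PACAP, and *Kcnj13*, a potassium channel and a marker of choroid plexus epithelium, were not DE at 0.17 ± 0.11 and 0.90 ± 0.43.

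Ionotropic glutamate receptor genes had 0 DE genes of 18 and a median of -0.02, with the AMPA receptor subunits *Gria2* at 0.12 ± 0.25 and *Gria4* at -0.05 ± 0.19. The median was 0.20 without saline male 3. GABA-A and glycine receptor genes had 1 higher DE gene of 18, *Gabra6*, where 1.92% of all genes tested were higher and DE. Their median was -0.05. It was 0.24 without saline male 3, and 18 of the 18 estimates were then above 0. Secretory and neuropeptide processing genes had 2 lower DE genes of 12, where 1.07% of all genes tested were lower and DE. Their median was -0.14. *Pcsk1n*, an inhibitor of prohormone convertase 1, had 42.3, 57.4, and 6.91 CPM in saline and 8.29, 9.05, and 12.7 CPM in morphine males (log2 fold change -1.83 ± 0.67). Saline male 3 had the lowest *Pcsk1n* level of the 6 mice. *Scg5*, a chaperone of prohormone convertase 2, had 422, 388, and 441 CPM against 342, 330, and 346 CPM (-0.30 ± 0.11), with no overlap. Of the 6 fits that left out a mouse, *Pcsk1n* was called in 2 and *Scg5* in 1.

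Among stress and clock genes, few were called. Circadian clock genes had 0 DE genes of 23 and a median of -0.01, with the transcription factors *Tef* at 0.06 ± 0.14 and *Nr1d2* at -0.08 ± 0.26. *Per3*, a period gene of the clock, had 34.2, 37.7, and 35.0 CPM in saline and 46.7, 45.3, and 40.0 CPM in morphine males. Its groups did not overlap, but the log2 fold change of 0.31 ± 0.13 had an unadjusted p of 0.0566. Glucocorticoid targets had 0 of 20 and a median of -0.07, with *Tsc22d3*, an anti-inflammatory mediator, at -0.19 ± 0.14 and the transcription factor *Klf9* at -0.07 ± 0.17. Immediate early genes, which neurons induce within minutes of activity, had a median of -0.14. Of the 26, 1 was lower and DE, where 1.07% of all genes tested were. This was *Klf2*, a transcription factor also found in endothelium, with 4.63, 6.06, and 4.32 CPM in saline and 3.02, 2.67, and 3.98 CPM in morphine males (-0.63 ± 0.24). Heat shock and chaperone genes had 0 of 20 and a median of -0.06, with the chaperones *Hsp90ab1* at 0.03 ± 0.15 and *Hspa8* at 0.00 ± 0.12.

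**Figure D5:**
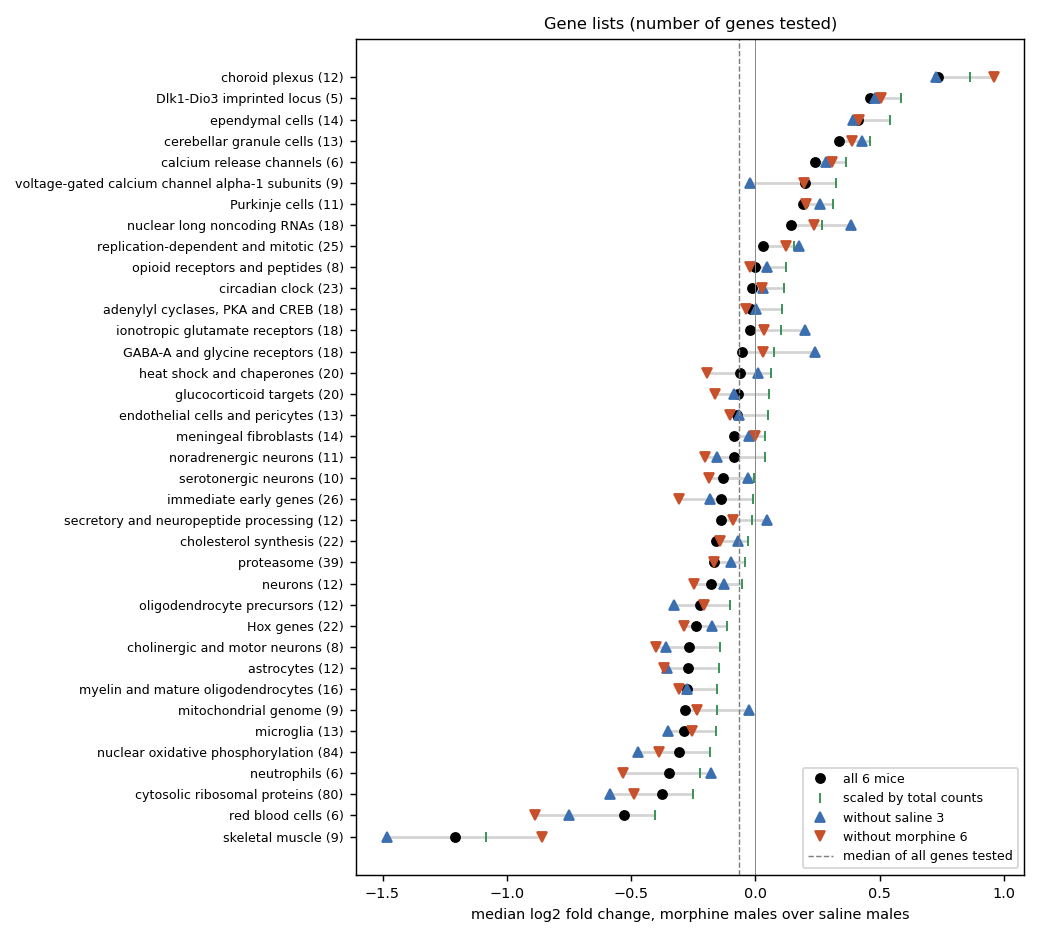
Median log2 fold change of each gene list with at least 5 genes tested, morphine males over saline males, from all 6 mice (black), scaled by total counts (green), without saline male 3 (blue), and without the library labelled morphine male 6 (red). Choroid plexus markers have the highest median (0.74) and skeletal muscle markers the lowest (-1.21), and voltage-gated calcium channel subunits cross 0 without saline male 3.

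The female mice, which by their labels share no animal with the males, were read beside these calls from a fit of all 12 mice. The library labelled morphine male 6 did not match its label fully, so the labels do not settle this. Of the 349 genes higher in morphine males, 120 had estimates above 0 and 229 below 0 in females, with a median of -0.09. Of the 194 genes lower in morphine males, 124 were above 0 and 70 below 0 in females, with a median of 0.06. Female signs and the female median over all genes tested are not given here, so these counts lack that background. In females, 6 of the higher genes (1.72%) and 5 of the lower genes (2.58%) were DE in the male direction, beside 0.275% and 0.727% of all genes tested in males that were DE in those directions in females. For *Meg3* the female log2 fold change was -0.11 ± 0.28, for *Fat2* -0.05 ± 0.16, for *Ripply2* 0.07 ± 0.26, and for *Mtln* 0.10 ± 0.18. Ribosomal protein genes had a female median of 0.21 and oxidative phosphorylation genes 0.17, against -0.37 and -0.31 in males, and choroid plexus markers had -0.67 against 0.74. The difference of the morphine effect between sexes was itself tested, as the interaction of treatment and sex with the quasi-likelihood test of edgeR. Of 19027 genes, 559 had an unadjusted p under 0.05, and 0 passed after adjustment (smallest adjusted p of 0.985). No gene's morphine effect was thus shown to differ between males and females. The female estimates and this interaction came from all 12 mice, including saline male 3 and the library labelled morphine male 6. They were not tested without these libraries.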

How the data were processed

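The authors sequenced poly-A RNA of single brainstems as 100 bp single-end reads, used Trimmomatic for trimming and STAR for alignment to mm10, and counted reads on exons of an Ensembl GRCm38 annotation with featureCounts (tool versions not given in the sources used here). The deposited values are raw counts for 55418 genes, all whole and unscaled. The labels give brainstem as the tissue, whereas their extraction text names spinal cords. Groups came from the labels.

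Males were fitted alone in R 4.3.3 by edgeR 4.0.16 (quasi-likelihood test, TMM scaling, filterByExpr, no covariate), with p values adjusted by Benjamini-Hochberg over all genes tested. DE genes needed an unadjusted p under 0.05 and a log2 fold change beyond 0.26 in either direction. With 3 mice a side, exact permutation cannot give less than 0.1. The fit was tested on simulated data. Principal components used log2(CPM + 2).

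Named genes were the 10 higher and 10 lower genes with the smallest p among DE genes whose groups did not overlap, with a mean of at least 1 CPM in either group and no predicted-gene name; some genes named for males in the study; in each of 39 lists up to 4 DE members, or else up to 2 with the highest level; and sex genes. The values of 1 such gene are left out. *Oprm1*, *Rian*, *Dlk1*, *Snhg11*, *Ttr*, *Cbln1*, *Cbln3*, *Slc17a7*, *Gm45743*, *Per3*, *Adcyap1r1*, *Ryr2*, *Grin2b*, *Kcnj6*, and *Kcnj13* were added after their values were seen. The comparison, genes, and lists were chosen with earlier results of these data known. Positions came from GENCODE M21 (GRCm38), in which all symbols were found and 115 stand for more than 1 gene.

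Alternatives were exactTest, DESeq2 1.42.0, total-count scaling, DESeq2 size factors, no filter, at least 10 counts in every library, the contrast from all 12 mice, p alone, and leaving out each mouse or both doubted libraries.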

Additional observations from a re-analysis of the deposited data

How the results depend on the processing

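As reported, 543 genes were DE (349 higher, 194 lower). Totals changed little with exactTest (545), the Wald test of DESeq2 (534), DESeq2 size factors (541), and a threshold on p alone (543). With at least 10 counts in every library the total was 462. The genes called changed more than the totals. In the same direction, exactTest kept 308 of the 349 higher and 134 of the 194 lower genes. The Wald test kept 285 and 133, and DESeq2 size factors kept 349 and 149. Without a filter on low counts 985 genes were DE, of which 478 were lower. The contrast from all 12 mice gave 394 lower genes, and scaling by total counts gave 737 higher and 70 lower. Leaving out 1 mouse gave 253 to 5341 DE genes, 183 to 1838 higher and 55 to 3503 lower, and after adjustment 0 to 2141 genes passed 0.05 by the quasi-likelihood test of edgeR. The highest count of each range came without saline male 3. Without both saline male 3 and the library labelled morphine male 6, 7548 genes were DE (3012 higher, 4536 lower) and 6573 had an adjusted p under 0.05. With exactTest, 1 gene had an adjusted p under 0.05. The causes were not tested.

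Among the 52 named DE genes, the direction turned for 1 in the fits that left out a mouse. This was *Xist*, whose log2 fold change of 6.30 became -1.74 without the library labelled morphine male 6 and -2.17 without both doubted libraries, and this gene is the X-inactivation list's one tested member. Of the named genes that were not DE, 32 changed sign in such a fit. Medians changed sign for 9 lists without saline male 3 and for 5 without the library labelled morphine male 6. Those without saline male 3 included GABA and glycine receptors (-0.05 to 0.24) and glutamate receptors (-0.02 to 0.20), and Y-linked genes changed sign under both. Lists whose median exceeded the spread between mice and changed sign by more than it were voltage-gated calcium channel subunits (-0.019 without saline male 3, -0.094 without both), secretory and neuropeptide processing (0.047 and 0.00019), and skeletal muscle (0.14 without saline male 2). Scaling by total counts turned the sign of the medians of 10 of 39 lists, which are the circadian, cAMP, opioid, glutamate receptor, GABA and glycine receptor, noradrenergic, glucocorticoid, endothelial, meningeal, and chaperone lists. Leave-one-out medians of the calcium channel, secretory, and muscle lists ran from -0.019 to 0.29, -0.15 to 0.047, and -1.49 to 0.14, and *Xist* from -1.74 to 6.95. No paired analysis was possible because saline males are numbered 1 to 3 and morphine males 4 to 6, so the groups share no replicate number, and the litter of each pup was not used here.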

Other observations

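Genes of axial patterning and of other tissues gave further values. Beside the counts below, 1.92% of all genes tested were higher and DE and 1.07% were lower and DE. Hox genes, which pattern the medulla and spinal cord, had 1 lower DE gene of 22 tested and a median log2 fold change of -0.24, and their summed level was 164 to 212 CPM in saline and 146 to 170 CPM in morphine males. The DE gene, *Hoxc6*, a gene of cervical and thoracic levels, had 1.58, 1.56, and 1.72 CPM in saline and 0.977, 0.977, and 1.10 CPM in morphine males (-0.67 ± 0.21), and its female estimate was -0.75 ± 0.29. Genes of replication and mitosis had 2 higher and 1 lower DE genes of 25 and a median of 0.03. *Melk* and *Cdca5* were at 0.71 ± 0.24 and 0.77 ± 0.29, both near 1 CPM or below in every mouse, and *Pcna*, the polymerase clamp, was at -0.31 ± 0.13.

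Markers of blood and muscle moved with single mice. Red blood cell genes summed to 475, 215, and 158 CPM in saline and 142, 132, and 267 CPM in morphine males, with a median of -0.53, 0 DE genes of 6, and *Hbb-bs* and *Hbb-bt* at -0.65 ± 0.45 and -0.67 ± 0.48. Neutrophil genes had 1 DE gene of 6 and a median of -0.35. *S100a8*, a calcium-binding protein of neutrophils, had 2.09, 1.54, and 4.69 CPM against 0.948, 1.43, and 1.22 CPM (-1.20 ± 0.45). Skeletal muscle genes had 0 of 9 and a median of -1.21, and *Acta1*, the actin of muscle fibers, had 11.0 CPM in saline male 2 and at most 1.73 CPM in the others. *Pvalb*, which neurons also express, was at -0.11 ± 0.21. Y-linked genes had 0 of 4 and a median of -0.34, which was 0.09 without the library labelled morphine male 6.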
